A study of Homo sapiens with 6 samples.

Results

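The nuclear receptor superfamily is represented by 46 genes, taken by symbol from a deposited table of FPKM values for 58735 genes. FPKM values are fragment counts scaled by gene length and library size, so levels of different genes can be set side by side. The table comes from RNA sequencing of the human liver cancer line Hep3B. In 3 libraries the cells carried a short hairpin RNA (shRNA) against HYOU1, a chaperone of the endoplasmic reticulum, and in 3 libraries they carried a control shRNA; both groups are the same line and no other treatment is named. The labels do not give the number of hairpins or clones, nor whether the replicates were separate cultures, so the p-values reflect how much these libraries varied, and that variation may be technical. The question was which of the receptor genes these cells express and how their levels with HYOU1 shRNA compared with those with control shRNA.

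Nuclear receptors are transcription factors, many of which are switched by small lipid-soluble ligands such as steroid and thyroid hormones, vitamins A and D, fatty acids, oxysterols and bile acids. Most bind copies of a short DNA half-site with a zinc finger domain, as homodimers or as heterodimers with a retinoid X receptor, and ligand exchanges corepressors for coactivators on the receptor. In hepatocytes the family is known for its control of bile acid, lipid, glucose and drug metabolism, with HNF4A as a central factor of hepatocyte identity.

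HYOU1 itself measured 2.35, 2.32 and 2.37 FPKM in HYOU1 shRNA replicates 1, 2 and 3, against 37.6, 58.2 and 59.5 FPKM in control replicates 1, 2 and 3. Its log2 fold change was -4.38 (standard error 0.20, adjusted p = 0.00119), so all 6 libraries matched their shRNA labels. The libraries held 16893091 to 18233240 fragments, and control replicate 1 stood apart. Its correlation across 12448 genes was 0.906 and 0.892 with control replicates 2 and 3, which had 0.971 with each other, and its mitochondrial share of fragments was 7.59%, against 5.17% and 4.96% in the other controls and 3.39% to 3.84% with HYOU1 shRNA. Many of the results that follow are therefore also given without that library, mainly where leaving it out adds a call, turns the sign or moves the value by over 1.5 times. Where no such value is given, the result may still shift without that library. The fit without control replicate 1 called far more genes, 24.6% of all genes higher and 19.7% lower, against 6.6% and 5.66% with all 6 libraries. Counts of calls below, for the receptor genes and for each list, are to be read against the shares of the same fit. Of 13 hepatocyte marker genes none reached a mean of 1 FPKM, and ALB, APOA2, APOH and TTR were at 0 in all 6 libraries, so defining markers of the labelled tissue were absent or near 0. Whether the cells are the labelled line was not tested. The summed level of those 13 genes was 1.05 to 1.23 FPKM with HYOU1 shRNA and 2.87 to 3.04 FPKM with control shRNA. PTPRC and KDR, which define blood and endothelial cells, were at 0 in every library; none of the 5 immune and none of the 4 endothelial markers had a mean of 1 FPKM. Of 6 biliary markers, led by KRT7 and SOX9, 4 were tested and limma called none (1 was higher at an unadjusted p under 0.05, and none passed with voom weights); without control replicate 1 there were 2 higher and none lower, where the shares were 24.6% and 19.7% of all genes, and after a correction for GC content 1 was higher. KRT7 had a log2 fold change of 0.41, and 0.22 (adjusted p = 0.0374) without control replicate 1. Of 7 fibroblast and stellate cell markers 4 were tested. Limma called 1 higher, COL1A1 at a log2 fold change of 1.09, and 1 lower, DCN at -1.35, where 6.6% and 5.66% of all genes were. Without control replicate 1 there were 1 higher and 2 lower, where the shares were 24.6% and 19.7% of all genes. The part of these markers in the results was not tested.

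Promoter windows from RefSeq (GRCh38.p14, 250 bases before to 50 bases after a transcript start) were at hand for 41 of the 46 genes, 96 windows in all. Windows are shown for receptor genes that passed the test below and had a window's transcript start within 200 bases of the gene start in the deposited table. These were NR1D1, PPARG and PPARA. Of the others that passed, RARG and NR2F2 had their nearest start 771 and 6627 bases away, and VDR had no window. NR1D1 and PPARA had the largest rise and the largest fall of the receptor genes that passed, and PPARG moved opposite to PPARA. Each window is the one nearest to the 5′ end of the gene in the deposited table and is printed 5′ to 3′ on the gene's strand. Capitals mark the half-site AGGTCA, the E-box CACGTG, the box CCAAT and the GC box GGGCGG on either strand, where adjoining GC boxes may overlap.
NR1D1, chr17:40100540-40100839, minus strand: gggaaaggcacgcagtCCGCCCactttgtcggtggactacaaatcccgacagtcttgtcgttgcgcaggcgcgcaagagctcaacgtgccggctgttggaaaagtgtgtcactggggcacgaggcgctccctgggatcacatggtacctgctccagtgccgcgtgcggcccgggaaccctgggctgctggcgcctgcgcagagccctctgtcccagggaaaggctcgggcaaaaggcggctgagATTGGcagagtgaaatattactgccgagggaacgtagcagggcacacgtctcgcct
PPARG, chr3:12287118-12287417, plus strand: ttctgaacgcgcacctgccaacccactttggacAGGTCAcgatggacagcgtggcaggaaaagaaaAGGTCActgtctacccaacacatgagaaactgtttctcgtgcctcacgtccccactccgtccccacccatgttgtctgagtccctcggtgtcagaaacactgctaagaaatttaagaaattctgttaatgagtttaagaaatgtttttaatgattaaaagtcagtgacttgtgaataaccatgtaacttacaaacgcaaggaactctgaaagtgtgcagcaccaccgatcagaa
PPARA, chr22:46150276-46150575, plus strand: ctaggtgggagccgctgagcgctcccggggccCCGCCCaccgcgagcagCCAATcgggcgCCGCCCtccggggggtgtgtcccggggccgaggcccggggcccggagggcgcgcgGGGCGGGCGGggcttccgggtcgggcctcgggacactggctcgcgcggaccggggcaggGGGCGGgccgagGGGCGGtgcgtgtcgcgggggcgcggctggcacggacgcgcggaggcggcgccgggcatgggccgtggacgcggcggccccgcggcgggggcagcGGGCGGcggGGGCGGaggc
The window of PPARG held 2 half-sites and no GC box, and its GC content was 45%. The window of PPARA held 8 GC boxes and 1 CCAAT and no half-site, at a GC content of 85.7%. The window of NR1D1 held 1 GC box and 1 CCAAT. The half-site AGGTCA occurred in 16 of the 96 receptor windows (16.7%) and in 13.8% of 35116 windows of all genes, and CACGTG in 9.38% against 7.26%. The GC box was in 51.0% against 44.95% and CCAAT in 35.4% against 34.6%. TGACGTCA, the cyclic AMP response element, was in 2.08% against 1.85%. Direct repeats of AGGTCA with 1, 2 or 4 bases between the copies were in none of the 96, and in only 8, 1 and 7 of the 35116 windows. The endoplasmic reticulum stress element (the letters CCAAT, then 9 bases of any kind, then the letters CCACG) was in none of the 96 and in 27 of the 35116. For letters this rare, their absence from 96 windows says nothing particular about the receptor genes. Such matches describe letters in these windows and show no binding.

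The cells expressed 26 of the 46 receptor genes at a mean of 1 FPKM or more, and 14 of these at 10 FPKM or more. The highest were NR2F6, an orphan receptor of the COUP group that mostly represses, ESRRA, an orphan activator of mitochondrial genes, and NR4A1, an immediate early orphan receptor. Together these 3 made up 38.1% to 39.0% of the summed FPKM of the family with HYOU1 shRNA and 26.5%, 37.8% and 39.6% in control replicates 1, 2 and 3. The sum over all 46 genes was 381, 378 and 406 FPKM in HYOU1 shRNA replicates 1, 2 and 3, against 252, 353 and 358 FPKM in control replicates 1, 2 and 3. Control replicate 1 was low in this sum, and the other controls lay below the HYOU1 shRNA libraries by less than the gap between controls.

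**Figure D1:**
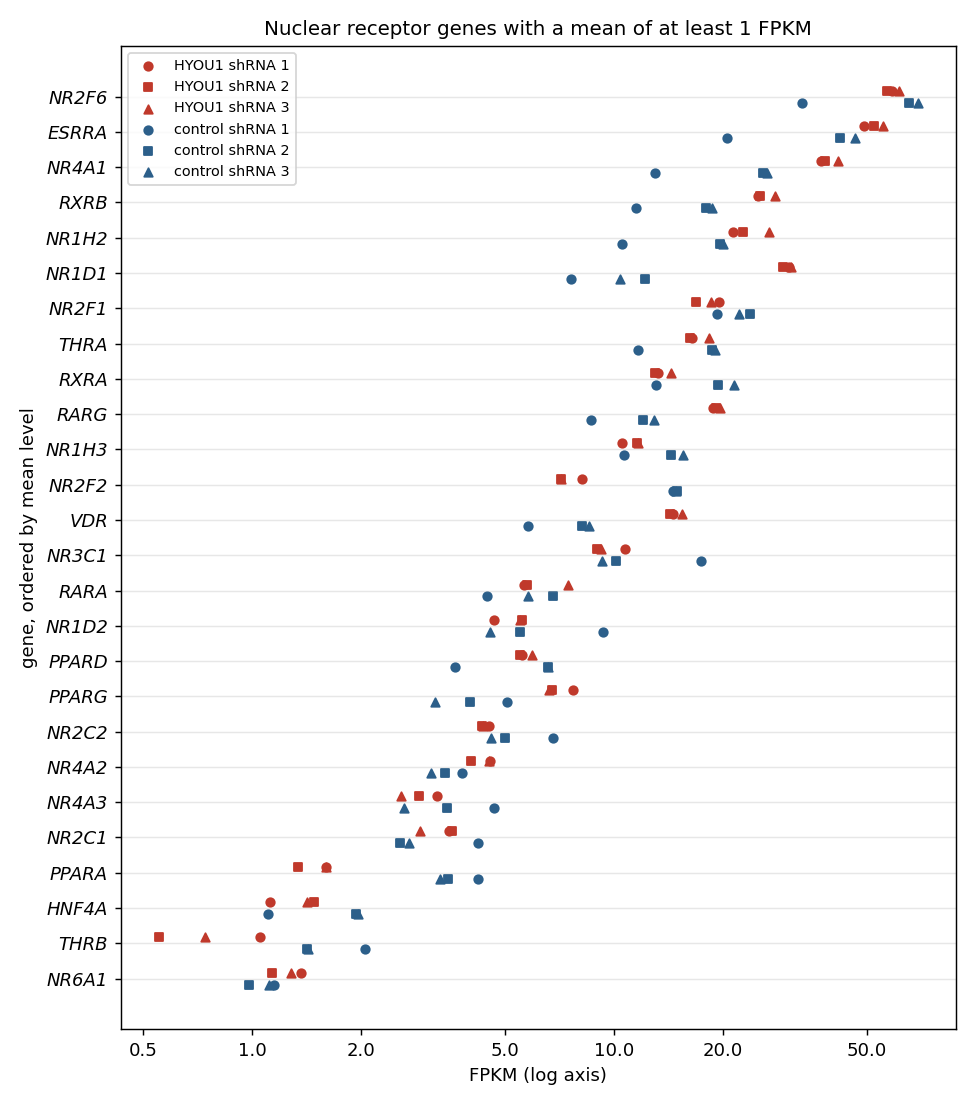
FPKM (log axis) of the 26 expressed nuclear receptor genes in each library, ordered by mean level, with HYOU1 shRNA libraries in red above control shRNA libraries in blue. NR1D1, RARG, VDR and PPARG lie higher with HYOU1 shRNA and NR2F2 and PPARA lower, without overlap, and control replicate 1 (blue circle) is often away from the other controls.

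The receptors that mark liver function were mostly silent. NR1H4 (FXR, the bile acid receptor) had 0.01501 to 0.0315 FPKM with HYOU1 shRNA and 0.0154 to 0.0441 FPKM with control shRNA, from 9 fragments in all. NR1I2 (PXR, a xenobiotic sensor) had 10 fragments over the 6 libraries, and NR0B2 (SHP, a corepressor-like receptor induced by FXR) had 1. NR1I3 (CAR, the other xenobiotic sensor) had 0.186 to 0.415 FPKM with HYOU1 shRNA and 0.0674 to 0.275 FPKM with control shRNA. Its exons share 661 bases with TOMM40L on the other strand, so part of these few fragments may belong there. NR1I3 had 11, 18 and 24 fragments in HYOU1 shRNA replicates 1, 2 and 3, against 13, 17 and 4 in control replicates 1, 2 and 3. With the filter lowered to a mean of 0.1 FPKM its log2 fold change was 0.50 (adjusted p = 0.535), which did not pass. For NR1H4, NR1I2 and NR0B2, at 10 fragments or fewer in all, no difference was detectable at this depth.

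Besides NR1I3, another 5 genes had means between 0.1 and 1 FPKM. NR5A2 (LRH-1, a regulator of bile acid and cholesterol genes) had 0.5099, 0.648 and 0.628 FPKM in HYOU1 shRNA replicates 1, 2 and 3, against 1.23, 0.883 and 0.936 FPKM in control replicates 1, 2 and 3. Its groups did not overlap, the HYOU1 shRNA libraries being lower. With the filter at 0.1 FPKM its log2 fold change by limma was -0.68 (adjusted p = 0.136), which did not pass. HNF4G, a relative of HNF4A, had 0.686 to 1.17 FPKM with HYOU1 shRNA and 0.696 to 1.33 FPKM with control shRNA. NR3C2, the mineralocorticoid receptor, had 0.3296 to 0.4903 FPKM with HYOU1 shRNA and 0.218 to 0.497 FPKM with control shRNA. RORA, an activator in the circadian clock, had 0.2204 to 0.339 FPKM with HYOU1 shRNA and 0.199 to 0.3404 FPKM with control shRNA. RARB, the retinoic acid receptor that retinoic acid itself induces, had 0.0773 to 0.317 FPKM with HYOU1 shRNA and 0.0754 to 0.6497 FPKM with control shRNA. The groups of HNF4G, NR3C2, RORA and RARB overlapped.

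The remaining 14 genes, NR1H4, NR1I2 and NR0B2 among them, had means under 0.1 FPKM. RORB, a ROR relative known from brain and retina, had 84 fragments in all. The estrogen receptors ESR1 and ESR2 had 18 and 17 fragments, and NR2E3, a photoreceptor gene, had 17. ESRRB, an estrogen-related receptor known from stem cells, had 4, NR2E1, a neural stem cell gene, had 2, and NR0B1 (DAX1), a repressor of steroid synthesis genes, and RXRG, a retinoid X receptor, had 1 each. PGR, the progesterone receptor, NR5A1 (SF-1), which drives steroid synthesis genes, and ESRRG, an estrogen-related receptor, had no fragment in any library. A count of 0 allows up to 0.0114 FPKM for PGR, 0.0514 FPKM for NR5A1 and 0.0161 FPKM for ESRRG per library, taking 3 fragments as the floor and counting error only.

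Among the 26 expressed receptor genes, 6 passed the test (limma on log2(FPKM + 0.1), Benjamini-Hochberg adjusted p under 0.05 over all genes tested). That is 23.1%, against a background of 12.3% of the 12448 genes tested. NR1D1, VDR, RARG and PPARG rose, 4 of 26 where 6.6% of all genes rose, and PPARA and NR2F2 fell, 2 of 26 where 5.66% of all genes fell. The median log2 fold change of the 26 was 0.09, and that of all tested genes was 0.04; the median size regardless of sign was 0.31 for the 26 and 0.34 for all genes. The HYOU1 shRNA and control libraries did not overlap for 13 of the 26 genes, a share of 50%, against 44.4% of all genes. Of these, 9 were higher with HYOU1 shRNA, where the background was 23.8%, and 4 were lower, where it was 20.6%. The number of receptor genes called is small enough that a single gene shifts these shares by several percentage points. In RNA from bulk cultures, a lower level of a transcript in every cell and fewer cells that hold it cannot be told apart.

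Of the fatty acid receptors, PPARA fell and PPARG rose (gene coordinates are on GRCh38). PPARA, which drives fatty acid oxidation in liver (ENSG00000186951, chr22:46150521-46243756, plus strand), had 1.597, 1.34 and 1.604 FPKM in HYOU1 shRNA replicates 1, 2 and 3, against 4.21, 3.48 and 3.296 FPKM in control replicates 1, 2 and 3. The HYOU1 shRNA libraries were all well below the lowest control. PPARA fell, with a log2 fold change of -1.22 (standard error 0.17, adjusted p = 0.0105). PPARG, the receptor of fat storage and adipocyte formation (ENSG00000132170, chr3:12287368-12434356, plus strand), had 7.69, 6.75 and 6.63 FPKM in HYOU1 shRNA replicates 1, 2 and 3, against 5.06, 4.001 and 3.19 FPKM in control replicates 1, 2 and 3. All HYOU1 shRNA libraries were above all controls, and PPARG rose, with a log2 fold change of 0.79 (standard error 0.19, adjusted p = 0.0442). PPARD, the widely expressed member, had 5.55, 5.496 and 5.94 FPKM in HYOU1 shRNA replicates 1, 2 and 3, against 3.64, 6.56 and 6.58 FPKM in control replicates 1, 2 and 3. Its groups overlapped through control replicate 1, and its log2 fold change of 0.07 (standard error 0.24, adjusted p = 0.87) became -0.21 (adjusted p = 0.0697) without that library. The within-library ratio of PPARG to PPARA, which no library scaling can change, was 4.81, 5.03 and 4.13 in HYOU1 shRNA replicates 1, 2 and 3, against 1.204, 1.15 and 0.969 in control replicates 1, 2 and 3. The 2 genes were thus at similar levels in the controls, control replicate 1 included, and PPARG was the higher one in every HYOU1 shRNA library. This ratio and those of other pairs below were chosen after the levels had been seen and are given without a test. A ratio does not remove a difference between libraries that depends on GC content. With a HYOU1 shRNA replicate left out, the adjusted p was 0.0704 to 0.0754 for PPARA and 0.152 to 0.175 for PPARG, so neither call held. PPARG also missed the threshold without control replicate 2 (adjusted p = 0.112) or 3 (adjusted p = 0.0763), while the log2 fold change stayed positive.

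Genes known as PPAR targets numbered 33, of which 22 were tested. Of these 22, 2 rose and 5 fell, where the shares were 6.6% and 5.66% of all genes, and the median log2 fold change was -0.35, against 0.04 over all genes. Without control replicate 1 the list had 3 higher and 9 lower (background 24.6% and 19.7% of all genes) and a median of -0.22, against 0.02 over all genes. PDK4, which shuts glucose carbon out of the citric acid cycle, had 15.5, 15.2 and 14.4 FPKM in HYOU1 shRNA replicates 1, 2 and 3, against 118, 71.6 and 67.8 FPKM in control replicates 1, 2 and 3. It fell with a log2 fold change of -2.46 (standard error 0.22, adjusted p = 0.00446), and control replicate 1 was the highest library. SLC25A20, the carnitine carrier of the mitochondrion, fell by 0.97 on the log2 scale (adjusted p = 0.0118) and ETFDH, which passes electrons from fatty acid oxidation to the respiratory chain, fell by 0.93 (adjusted p = 0.0225). CREB3L3, a liver transcription factor made as an endoplasmic reticulum membrane protein, had 3.07, 2.54 and 3.07 FPKM in HYOU1 shRNA replicates 1, 2 and 3, against 0.525, 0.817 and 0.936 FPKM in control replicates 1, 2 and 3. It rose, with a log2 fold change of 1.83 (standard error 0.24, adjusted p = 0.0104). The other calls in the list, named after their values were seen, were falls of CAT (catalase, -0.87) and LPL (lipoprotein lipase, -0.67) and a rise of PLIN2 (a lipid droplet coat protein, 0.55). PPARGC1A, the coactivator PGC-1alpha that works with PPARA and ESRRA on oxidative genes, had 1.896, 1.58 and 1.72 FPKM in HYOU1 shRNA replicates 1, 2 and 3, against 7.07, 4.01 and 3.56 FPKM in control replicates 1, 2 and 3. It fell, with a log2 fold change of -1.38 (standard error 0.27, adjusted p = 0.0268), which was -1.08 (adjusted p = 0.000478) without control replicate 1.

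**Figure D2:**
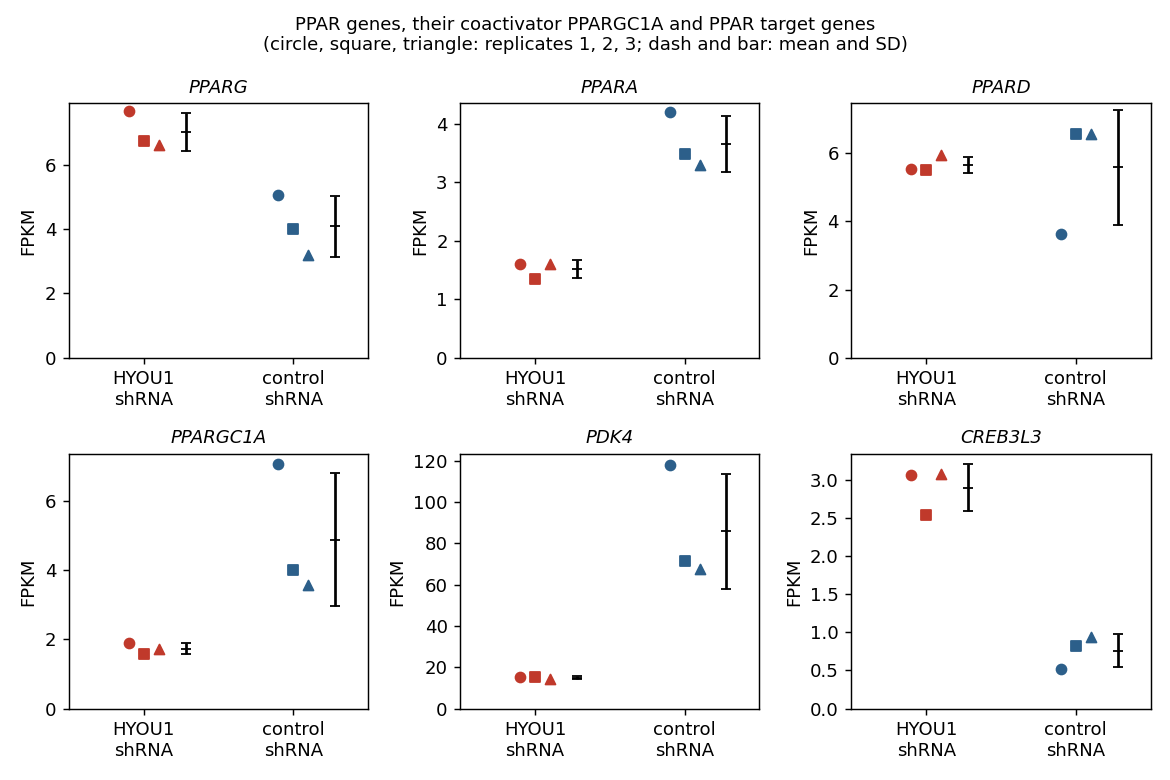
FPKM of PPARG, PPARA and PPARD, of the coactivator PPARGC1A and of the target genes PDK4 and CREB3L3, with HYOU1 shRNA libraries on the left and control shRNA libraries on the right of each panel (points are libraries, the dash and bar are mean and SD, n = 3 each). PPARG and CREB3L3 are higher and PPARA, PPARGC1A and PDK4 lower in every HYOU1 shRNA library than in every control, and PPARD overlaps.

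The largest change among the 26 expressed genes was in a clock receptor. NR1D1 (REV-ERBalpha), a heme-binding repressor of the clock and of lipid genes (ENSG00000126368, chr17:40092787-40100725, minus strand), had 30.4, 29.4 and 30.8 FPKM in HYOU1 shRNA replicates 1, 2 and 3, against 7.59, 12.2 and 10.4 FPKM in control replicates 1, 2 and 3. The 3 HYOU1 shRNA libraries lay close together and far above the controls, at 30.2 ± 0.7298 FPKM with HYOU1 shRNA and 10.1 ± 2.31 FPKM with control shRNA (SD, n = 3 each). NR1D1 rose, with a log2 fold change of 1.60 (standard error 0.18, adjusted p = 0.00736), and of 1.42 (adjusted p = 1.68e-05) without control replicate 1. With a HYOU1 shRNA replicate left out the adjusted p was 0.0563 to 0.0614, just past the threshold, at log2 fold changes of 1.59 to 1.62. NR1D2 (REV-ERBbeta), its relative with overlapping function, had 4.65, 5.56 and 5.51 FPKM in HYOU1 shRNA replicates 1, 2 and 3, against 9.35, 5.48 and 4.55 FPKM in control replicates 1, 2 and 3. Its groups overlapped, and the log2 fold change of -0.23 (standard error 0.27, adjusted p = 0.581) turned to 0.06 (adjusted p = 0.7) without control replicate 1. The ratio of NR1D1 to NR1D2 was 6.55, 5.28 and 5.59 in HYOU1 shRNA replicates 1, 2 and 3, against 0.811, 2.22 and 2.29 in control replicates 1, 2 and 3. The 2 genes differ in GC content (59.5% and 38.5%), and control replicate 1 stood apart in this ratio. The mean log2 ratio was 1.85 higher with HYOU1 shRNA, and 1.36 higher without control replicate 1. Of 16 clock genes with known REV-ERB and ROR sites 13 were tested, with a median log2 fold change of 0.07. None fell, where 5.66% of all genes fell (1 was lower at an unadjusted p under 0.05, and 1 by limma with voom weights on the recovered fragments, where 14.5% of all genes were called). Of the 13, 2 rose, where 6.6% of all genes rose. The risers were DBP, a clock output factor, with 3.32, 3.08 and 3.08 FPKM in HYOU1 shRNA replicates 1, 2 and 3, against 0.654, 1.38 and 1.56 FPKM in control replicates 1, 2 and 3, and PER1, a clock repressor. Their log2 fold changes were 1.41 (standard error 0.31, adjusted p = 0.0351) for DBP and 1.06 (standard error 0.23, adjusted p = 0.0335) for PER1. Without control replicate 1, 5 of the 13 rose and 1 fell, a share of 46.2%, near the 44.3% of all genes called in that fit. The median of the 13 was 0.12 in that fit.

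The 3' exons of NR1D1 overlap those of THRA, the thyroid hormone receptor alpha gene on the other strand, over 263 bases. The sources do not state whether counting was strand-specific, so fragments there cannot be assigned to one of the 2 genes. The shared bases are part of 2772 exon bases of NR1D1 and 6959 of THRA. The levels and fold changes of both genes, and the ratio of NR1D1 to NR1D2, are uncertain to that extent. THRA had 16.4, 16.2 and 18.3 FPKM in HYOU1 shRNA replicates 1, 2 and 3, against 11.7, 18.7 and 18.98 FPKM in control replicates 1, 2 and 3. The HYOU1 shRNA libraries of THRA lay between control replicate 1 and the other controls. Its log2 fold change was 0.08 (standard error 0.21, adjusted p = 0.818), with -0.15 (adjusted p = 0.137) without control replicate 1 and -0.22 (adjusted p = 0.0173) after a correction that removes the GC trend of each library. THRB, the beta receptor and the main form in liver, had 1.05, 0.551 and 0.7401 FPKM in HYOU1 shRNA replicates 1, 2 and 3, against 2.05, 1.42 and 1.42 FPKM in control replicates 1, 2 and 3. All HYOU1 shRNA libraries were below all controls, but the log2 fold change of -0.99 (standard error 0.30, adjusted p = 0.078) missed the threshold; with voom weights on the recovered fragments it was -1.09 (adjusted p = 0.039). Of 9 thyroid hormone receptor targets 5 were tested, and 1 fell, where 5.66% of all genes did. This was the lipogenic malic enzyme gene ME1, with a log2 fold change of -0.78 (standard error 0.17, adjusted p = 0.034). The median of the 5 was 0.20, and it turned to -0.08 without control replicate 1, with 1 higher and 1 lower (background 24.6% and 19.7% of all genes).

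VDR, the vitamin D receptor (ENSG00000111424, chr12:47841537-47943048, minus strand), had 14.6, 14.3 and 15.5 FPKM in HYOU1 shRNA replicates 1, 2 and 3, against 5.803, 8.16 and 8.53 FPKM in control replicates 1, 2 and 3. The lowest HYOU1 shRNA library was well above the highest control. VDR rose, with a log2 fold change of 0.99 (standard error 0.17, adjusted p = 0.0191), and the value was 0.82 (adjusted p = 9.16e-05) without control replicate 1. With a HYOU1 shRNA replicate left out the adjusted p was 0.0966 to 0.107, and it was 0.0585 without control replicate 2. Its classical targets were mostly silent. Of 10 such genes 2 were tested and none was called by limma with all 6 libraries (1 was lower at an unadjusted p under 0.05, and none passed with voom weights). IGFBP3, a carrier of insulin-like growth factors, had 79.3, 78.9 and 75.3 FPKM in HYOU1 shRNA replicates 1, 2 and 3, against 95.8, 95.1 and 97.5 FPKM in control replicates 1, 2 and 3, with a log2 fold change of -0.30 (standard error 0.09, adjusted p = 0.0804). It was called lower without control replicate 1, at -0.31 (adjusted p = 0.00323), and after the GC correction, at -0.30 (adjusted p = 0.0045), fits in which 19.7% and 20.2% of all genes were lower. THBD, the thrombomodulin gene, had 0.918 to 1.34 FPKM with HYOU1 shRNA and 0.779 to 1.11 FPKM with control shRNA, which overlap, and a log2 fold change of 0.27, with 0.41 (adjusted p = 0.233) without control replicate 1.

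RARG, the retinoic acid receptor gamma (ENSG00000172819, chr12:53210567-53232980, minus strand), had 18.8, 19.2 and 19.7 FPKM in HYOU1 shRNA replicates 1, 2 and 3, against 8.63, 12.1 and 12.9 FPKM in control replicates 1, 2 and 3. The groups did not overlap and RARG rose, with a log2 fold change of 0.79 (standard error 0.17, adjusted p = 0.0337). The value was 0.62 (adjusted p = 0.000238) without control replicate 1 and 0.49 (adjusted p = 0.00274) after the GC correction. With a HYOU1 shRNA replicate left out the adjusted p was 0.134 to 0.147, and it was 0.0825 without control replicate 2. RARA, the alpha receptor, had 5.64, 5.75 and 7.48 FPKM in HYOU1 shRNA replicates 1, 2 and 3, against 4.45, 6.79 and 5.79 FPKM in control replicates 1, 2 and 3, and the groups overlapped. Its log2 fold change of 0.15 (standard error 0.20, adjusted p = 0.625) became -0.01 (adjusted p = 0.97) without control replicate 1 and changed sign to -0.25 (adjusted p = 0.238) after the GC correction. The ratio of RARG to RARA was 3.33, 3.33 and 2.63 in HYOU1 shRNA replicates 1, 2 and 3, against 1.94, 1.78 and 2.23 in control replicates 1, 2 and 3. Of 15 retinoic acid receptor targets 7 were tested, of which 2 rose and none fell, where 6.6% and 5.66% of all genes did (none was lower at an unadjusted p under 0.05 or with voom weights). The median log2 fold change of the 7 was 0.14. Without control replicate 1 there were 3 higher and 1 lower (background 24.6% and 19.7% of all genes) at a median of 0.26, and after the GC correction 3 higher and 1 lower (background 20.4% and 20.2% of all genes). HOXA5, a homeobox gene, rose with a log2 fold change of 1.46 (standard error 0.21, adjusted p = 0.0125), and CYP26B1, which degrades retinoic acid, rose with 0.71 (standard error 0.13, adjusted p = 0.0204).

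The retinoid X receptors are the partners of PPARs, RARs, LXRs, THRs and VDR. RXRA had 13.3, 12.96 and 14.4 FPKM in HYOU1 shRNA replicates 1, 2 and 3, against 13.1, 19.4 and 21.4 FPKM in control replicates 1, 2 and 3. The HYOU1 shRNA libraries were near control replicate 1 and below the other controls; the log2 fold change was -0.38 (standard error 0.20, adjusted p = 0.243), and -0.59 (adjusted p = 0.000605) without control replicate 1. RXRB had 24.9, 25.4 and 27.9 FPKM in HYOU1 shRNA replicates 1, 2 and 3, against 11.5, 17.9 and 18.7 FPKM in control replicates 1, 2 and 3. All its HYOU1 shRNA libraries were above all controls, with a log2 fold change of 0.73 (standard error 0.20, adjusted p = 0.0658) and 0.50 (adjusted p = 0.000855) without control replicate 1. The ratio of RXRB to RXRA was 1.88, 1.96 and 1.94 in HYOU1 shRNA replicates 1, 2 and 3, against 0.878, 0.924 and 0.874 in control replicates 1, 2 and 3. The 2 genes differ little in GC content (58.5% and 60.6%), and in this ratio control replicate 1 was like the other controls. RXRB shares 244 exon bases with SLC39A7 on the other strand, a gene at a mean of 60.9 FPKM. SLC39A7 had 71.9, 69.3 and 75.4 FPKM in HYOU1 shRNA replicates 1, 2 and 3, against 36.7, 56.3 and 55.8 FPKM in control replicates 1, 2 and 3. The level of RXRB, its fold change and its ratio to RXRA are uncertain to that extent.

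The COUP receptors are orphan receptors that mostly repress, and of the 3 expressed ones NR2F2 (COUP-TFII, ENSG00000185551, chr15:96325938-96340263, plus strand) passed the test. NR2F2 had 8.16, 7.14 and 7.13 FPKM in HYOU1 shRNA replicates 1, 2 and 3, against 14.6, 14.98 and 14.9 FPKM in control replicates 1, 2 and 3. Here control replicate 1 was like the other controls, and all HYOU1 shRNA libraries were well below them. NR2F2 fell, with a log2 fold change of -0.98 (standard error 0.12, adjusted p = 0.00736), and -0.99 (adjusted p = 8.15e-05) without control replicate 1. It kept its call without HYOU1 shRNA replicate 1 (adjusted p = 0.048), but not without replicate 2 or 3 (adjusted p = 0.0685 and 0.0686). NR2F1 (COUP-TFI) had 19.5, 16.9 and 18.6 FPKM in HYOU1 shRNA replicates 1, 2 and 3, against 19.2, 23.7 and 22.2 FPKM in control replicates 1, 2 and 3, with overlap and a log2 fold change of -0.24 (standard error 0.13, adjusted p = 0.253). It was called lower without control replicate 1, at -0.32 (adjusted p = 0.011). NR2F6 had 58.6, 56.8 and 61.3 FPKM in HYOU1 shRNA replicates 1, 2 and 3, against 33.2, 65.3 and 69.1 FPKM in control replicates 1, 2 and 3. Its control replicate 1 was far below the rest, and the log2 fold change of 0.15 (standard error 0.28, adjusted p = 0.742) turned to -0.19 (adjusted p = 0.0368) without it. The ratio of NR2F2 to NR2F1 was 0.418, 0.423 and 0.384 in HYOU1 shRNA replicates 1, 2 and 3, against 0.757, 0.632 and 0.671 in control replicates 1, 2 and 3.

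The testicular receptors and the germ cell nuclear factor gave no call. NR2C1 (TR2) had 3.499, 3.56 and 2.92 FPKM in HYOU1 shRNA replicates 1, 2 and 3, against 4.21, 2.56 and 2.71 FPKM in control replicates 1, 2 and 3, which overlap. NR2C2 (TR4) had 4.53, 4.33 and 4.34 FPKM in HYOU1 shRNA replicates 1, 2 and 3, against 6.77, 5.01 and 4.58 FPKM in control replicates 1, 2 and 3, and its libraries did not overlap, being lower with HYOU1 shRNA by less than the spread of the controls. NR2C2 shares 1197 exon bases with MRPS25 on the other strand, whose groups overlapped. It also shares 155 with FGD5-AS1, which had 19.2, 18.2 and 18.4 FPKM in HYOU1 shRNA replicates 1, 2 and 3, against 32.3, 21.3 and 22.9 FPKM in control replicates 1, 2 and 3. NR6A1 (GCNF), a repressor of pluripotency genes, had 1.36, 1.13 and 1.28 FPKM in HYOU1 shRNA replicates 1, 2 and 3, against 1.15, 0.981 and 1.11 FPKM in control replicates 1, 2 and 3, which overlap. The log2 fold changes were 0.10 (standard error 0.22, adjusted p = 0.775) for NR2C1, -0.28 (standard error 0.17, adjusted p = 0.3) for NR2C2 and 0.20 (standard error 0.21, adjusted p = 0.535) for NR6A1. Leaving out control replicate 1 moved NR2C1 to 0.32 (adjusted p = 0.0694) and NR2C2 to -0.12 (adjusted p = 0.318).

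The NR4A receptors are immediate early genes without a known physiological ligand. NR4A1 had 37.4, 38.4 and 41.7 FPKM in HYOU1 shRNA replicates 1, 2 and 3, against 13.02, 25.8 and 26.5 FPKM in control replicates 1, 2 and 3. All HYOU1 shRNA libraries were above all controls; the log2 fold change of 0.91 (standard error 0.28, adjusted p = 0.0803) did not pass the test, and it was 0.58 (adjusted p = 0.000341) without control replicate 1. NR4A2 had 4.55, 4.03 and 4.51 FPKM in HYOU1 shRNA replicates 1, 2 and 3, against 3.795, 3.404 and 3.12 FPKM in control replicates 1, 2 and 3, also without overlap, and its log2 fold change was 0.34 (standard error 0.14, adjusted p = 0.156). NR4A2 was called higher without control replicate 1, at 0.41 (adjusted p = 0.0142). NR4A3 had 3.25, 2.89 and 2.57 FPKM in HYOU1 shRNA replicates 1, 2 and 3, against 4.66, 3.46 and 2.63 FPKM in control replicates 1, 2 and 3, with overlap and a log2 fold change of -0.26 (standard error 0.23, adjusted p = 0.465), and of -0.06 (adjusted p = 0.78) without control replicate 1. Among these receptors only NR4A1 was above 10 FPKM.

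ESRRA had 49.2, 52.2 and 55.4 FPKM in HYOU1 shRNA replicates 1, 2 and 3, against 20.6, 42.3 and 46.3 FPKM in control replicates 1, 2 and 3. The groups did not overlap, but control replicate 1 was far below the other controls, and the log2 fold change of 0.60 (standard error 0.31, adjusted p = 0.227) became 0.24 (adjusted p = 0.0294) without it. Its exons share 284 bases with TRMT112 on the other strand, which averaged 89.6 FPKM. TRMT112 had 105, 108 and 111 FPKM in HYOU1 shRNA replicates 1, 2 and 3, against 35.7, 83.2 and 95.2 FPKM in control replicates 1, 2 and 3. The level of ESRRA and its fold change are uncertain to that extent. NR3C1, the glucocorticoid receptor and the only steroid receptor above 1 FPKM among the 5 of the list, had 10.7, 8.99 and 9.19 FPKM in HYOU1 shRNA replicates 1, 2 and 3, against 17.4, 10.2 and 9.24 FPKM in control replicates 1, 2 and 3. Its groups overlapped and only control replicate 1 was high, so the log2 fold change was -0.29 (standard error 0.25, adjusted p = 0.46) with it and -0.01 (adjusted p = 0.936) without it. Of 19 glucocorticoid receptor targets 16 were tested, and 6 rose and 1 fell, where the shares were 6.6% and 5.66% of all genes, with a median log2 fold change of 0.44. The median was 0.20 without control replicate 1, with 8 higher and 4 lower (background 24.6% and 19.7% of all genes), and the GC correction gave 7 higher and 4 lower (background 20.4% and 20.2% of all genes). The largest changes were in IGFBP1, an insulin-repressed secreted protein of liver, which fell with a log2 fold change of -1.89 (standard error 0.15, adjusted p = 0.00302), and in MT2A, a metallothionein of a family of near-identical genes, which rose with 1.39 (standard error 0.13, adjusted p = 0.00446). CDKN1C, a cell cycle inhibitor, rose with 1.20 (standard error 0.16, adjusted p = 0.0111), which was 0.77 (adjusted p = 0.00361) after the GC correction, and PER1 rose as above, with 0.67 (adjusted p = 0.000956) after that correction. Of 12 estrogen receptor targets 7 were tested, where IGFBP4 (a growth factor carrier, 1.01, and 0.62 after the GC correction) and CCND1 (cyclin D1, 0.65) rose and CA12 (a carbonic anhydrase, -0.80) fell on the log2 scale, while ESR1 and ESR2 themselves were near 0. This list had 4 higher and 1 lower without control replicate 1 (background 24.6% and 19.7% of all genes).

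The LXR genes encode the oxysterol receptors. NR1H2 (LXRbeta) had 21.3, 22.7 and 26.9 FPKM in HYOU1 shRNA replicates 1, 2 and 3, against 10.5, 19.7 and 20.03 FPKM in control replicates 1, 2 and 3, and NR1H3 (LXRalpha) had 10.5, 11.6 and 11.6 FPKM in HYOU1 shRNA replicates 1, 2 and 3, against 10.7, 14.4 and 15.5 FPKM in control replicates 1, 2 and 3. NR1H2 did not overlap between the groups and NR1H3 did. The log2 fold changes were 0.55 (standard error 0.27, adjusted p = 0.216) for NR1H2 and -0.25 (standard error 0.17, adjusted p = 0.342) for NR1H3; without control replicate 1 they were 0.24 (adjusted p = 0.0776) and -0.41 (adjusted p = 0.00334). The ratio of NR1H2 to NR1H3 was 2.02, 1.97 and 2.31 in HYOU1 shRNA replicates 1, 2 and 3, against 0.984, 1.37 and 1.29 in control replicates 1, 2 and 3. NR1H3 shares 189 exon bases with ACP2 on the other strand. ACP2 had 8.91, 7.999 and 8.38 FPKM in HYOU1 shRNA replicates 1, 2 and 3, against 12.96, 17.7 and 20.6 FPKM in control replicates 1, 2 and 3. The level of NR1H3, its fold changes and the ratio of NR1H2 to it are uncertain to that extent. Of 16 LXR targets 10 were tested, and 1 rose and 1 fell, where 6.6% and 5.66% of all genes did. MYLIP (IDOL, which degrades the LDL receptor) rose with 0.98 (standard error 0.16, adjusted p = 0.0147) and PLTP (phospholipid transfer protein) fell with -1.10 (standard error 0.21, adjusted p = 0.0264). The median of the 10 was 0.32 with all 6 libraries and 0.05 without control replicate 1, where 4 rose and 2 fell (background 24.6% and 19.7% of all genes). ABCA1, named after its value was seen, was not tested, at a mean of 0.846 FPKM. It had 0.342 to 0.532 FPKM with HYOU1 shRNA and 1.0015 to 1.801 FPKM with control shRNA. With the filter at 0.1 FPKM limma called it lower, at a log2 fold change of -1.43 (adjusted p = 0.0455).

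HNF4A was low for a hepatocyte factor, with 1.12, 1.48 and 1.42 FPKM in HYOU1 shRNA replicates 1, 2 and 3, against 1.11, 1.93 and 1.96 FPKM in control replicates 1, 2 and 3. Its groups overlapped through control replicate 1; the log2 fold change was -0.26 (standard error 0.27, adjusted p = 0.537), and -0.52 (adjusted p = 0.044) without that library. Of 16 HNF4A targets only PCK1, a gluconeogenic enzyme gene, reached 1 FPKM, and 8 were at 0 in every library. PCK1 had 2.04 to 2.29 FPKM with HYOU1 shRNA and 1.84 to 2.01 FPKM with control shRNA, with a log2 fold change of 0.13 (standard error 0.15, adjusted p = 0.564); the list gave no call, none at an unadjusted p under 0.05 and none with voom weights. The targets of FXR, PXR and CAR were likewise mostly silent, with 3 of 15 and 4 of 16 tested. Among them SLC51B, a bile acid exporter subunit, had 4.58, 3.59 and 3.53 FPKM in HYOU1 shRNA replicates 1, 2 and 3, against 12.8, 14.8 and 18.7 FPKM in control replicates 1, 2 and 3, and fell with -1.95 (standard error 0.19, adjusted p = 0.00473). Without control replicate 1, 2 of the 3 tested genes of FXR and bile acids were lower, where 19.7% of all genes were. CYP3A5, a drug-metabolizing enzyme, rose with 0.89 (standard error 0.22, adjusted p = 0.0479). The median log2 fold change of the 4 tested PXR and CAR targets was 0.14, and 0.05 without control replicate 1.

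Control replicate 1 differed from the other controls along GC content, and the receptor genes show it plainly. In all 12 expressed receptor genes with a GC content of at least 58% in the longest transcript it was the lowest control, and in all 6 with a GC content under 45% it was the highest control. Over the 26 genes the deviation of control replicate 1 from the mean of the other controls had a Pearson correlation of -0.93 with GC content; the points share 3 libraries, and no test is given. The expressed receptor genes are rich in GC, at a median of 54.8%, against 48.8% over all tested genes. Without control replicate 1, 15 of the 26 were called, a share of 57.7% against 44.3% of all genes. Of these 8 rose (background 24.6%) and 7 fell (background 19.7%). After a correction that removes a smooth GC trend from each library, 15 of the 26 were called against 40.6% of all genes, 7 higher (background 20.4%) and 8 lower (background 20.2%). All 6 calls made with the 6 libraries were kept with the same direction in both. Called in both besides these 6 were NR4A1, NR4A2 and RXRB, higher, and NR1H3, NR2F1, NR2F6 and RXRA, lower. The correction would also take out a real group difference tied to GC content, and its part in the results was not tested. The sign turned for NR2F6, PPARD, RARA and THRA in both fits, and for NR1D2 without control replicate 1.

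**Figure D3:**
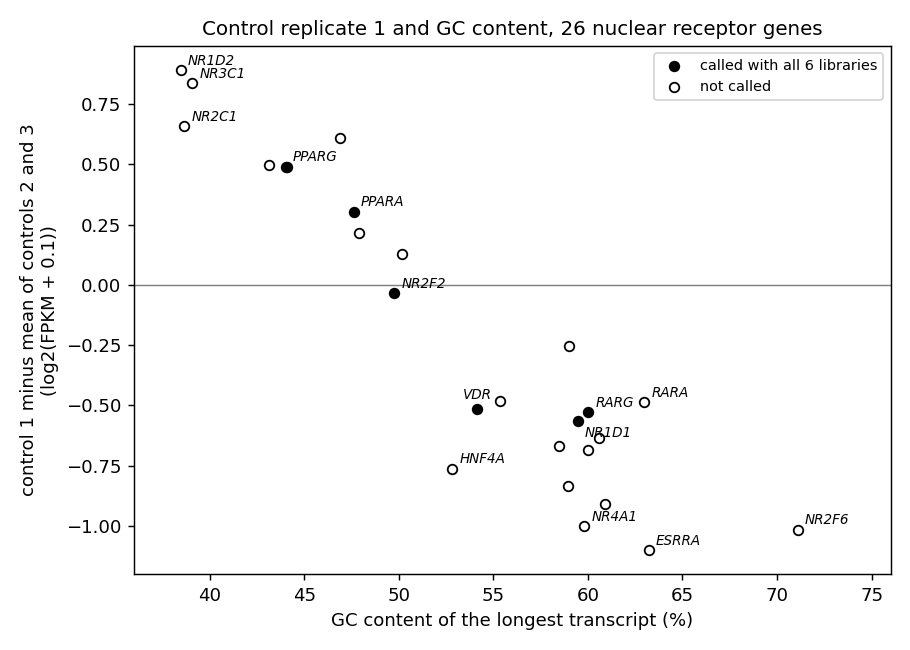
Deviation of control replicate 1 from the mean of control replicates 2 and 3 (log2(FPKM + 0.1), vertical axis) against GC content of the longest transcript (percent, horizontal axis), each point 1 of the 26 expressed nuclear receptor genes, filled where called with all 6 libraries. The points run from NR1D2 and NR3C1 at the upper left to ESRRA and NR2F6 at the lower right, with NR2F2 near 0.

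**Figure D4:**
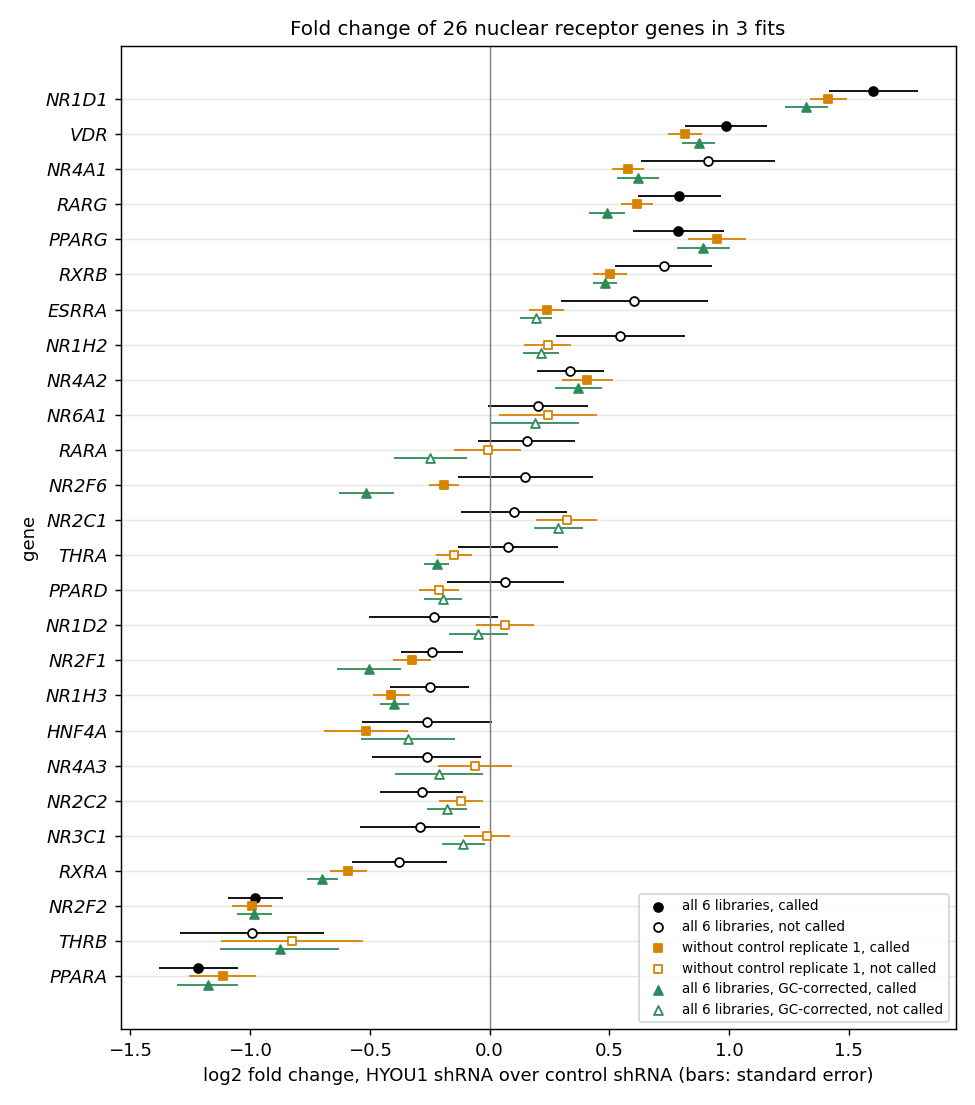
Log2 fold change, HYOU1 shRNA over control shRNA, with standard error for the 26 expressed nuclear receptor genes with all 6 libraries (black), without control replicate 1 (orange) and after the GC correction (green), filled where adjusted p was under 0.05. NR1D1, VDR, RARG, PPARG, NR2F2 and PPARA are filled in all 3 fits, and NR2F6, RARA, THRA and PPARD change sign between them.

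The calls with all 6 libraries rest on 3 libraries per group. Without HYOU1 shRNA replicate 1, 2 or 3, limma called 1, 0 and 0 receptor genes, against 1.01%, 0.683% and 0.394% of all genes. In each of these fits 9 of the 26 had an unadjusted p under 0.05, where 2672, 2628 and 2533 of all 12448 genes did. Without control replicate 2 it called 3 (NR1D1, NR2F2 and PPARA, background 2.87%) and without control replicate 3 it called 5 (all but PPARG, background 8.21%). No called receptor gene changed sign in any of these fits. With voom weights on all 6 libraries 7 were called (background 14.5%), THRB being added.

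Among the partners of the receptors, the calls were falls of coactivators and of 1 corepressor and rises of chaperones. All 18 coactivator genes were tested, with a median log2 fold change of -0.24, against 0.04 over all genes. None rose, where 6.6% of all genes rose (2 were higher at an unadjusted p under 0.05 and none with voom weights). Of the 18, 4 fell, where 5.66% of all genes fell. Beside PPARGC1A these were NCOA2 (a p160 coactivator, 1.098, 1.21 and 1.37 FPKM in HYOU1 shRNA replicates 1, 2 and 3, against 2.93, 2.103 and 2.05 FPKM in control replicates 1, 2 and 3), EP300 and CREBBP, a pair of histone acetyltransferases. EP300 had 2.91, 2.81 and 3.16 FPKM in HYOU1 shRNA replicates 1, 2 and 3, against 6.42, 5.04 and 4.63 FPKM in control replicates 1, 2 and 3. For CREBBP the values were 4.31, 3.48 and 4.56 FPKM with HYOU1 shRNA, against 6.69, 6.85 and 6.27 FPKM with control shRNA. No HYOU1 shRNA library reached the lowest control in any of these 3 genes, and the log2 fold changes were -0.88 (standard error 0.20, adjusted p = 0.0395) for NCOA2, -0.82 (standard error 0.16, adjusted p = 0.027) for EP300 and -0.68 (standard error 0.15, adjusted p = 0.0325) for CREBBP. Without control replicate 1 the coactivators split into 4 higher and 7 lower, where the shares were 24.6% and 19.7% of all genes. Of 10 corepressor genes 9 were tested and 1 fell, where 5.66% of all genes fell. This was TBL1X of the NCoR complex, with a log2 fold change of -0.45 (standard error 0.11, adjusted p = 0.0395). Without control replicate 1, 3 of the 9 were lower, where 19.7% of all genes were. All 8 genes of the chaperone cycle that folds steroid receptors were tested, and 2 rose and none fell, where 6.6% and 5.66% of all genes did (none was lower at an unadjusted p under 0.05 or with voom weights). The median log2 fold change of the 8 was 0.46. FKBP5, an HSP90 cochaperone and glucocorticoid target, had 6.33, 5.56 and 5.24 FPKM in HYOU1 shRNA replicates 1, 2 and 3, against 4.26, 3.03 and 3.37 FPKM in control replicates 1, 2 and 3. HSPA8, the constitutive HSP70, had 565, 595 and 553 FPKM in HYOU1 shRNA replicates 1, 2 and 3, against 436, 340 and 374 FPKM in control replicates 1, 2 and 3; it has many processed pseudogenes that can share reads. Their log2 fold changes were 0.68 (standard error 0.17, adjusted p = 0.0486) for FKBP5 and 0.58 (standard error 0.12, adjusted p = 0.03) for HSPA8, and without control replicate 1 there were 6 higher and none lower (background 24.6% and 19.7% of all genes).

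Enzymes that make or remove receptor ligands held the largest fall in these lists. Of 25 steroid enzyme genes 13 were tested; 1 rose and 4 fell, where the shares were 6.6% and 5.66% of all genes, and the median log2 fold change was -0.40. Leaving out control replicate 1 gave 1 higher and 6 lower (background 24.6% and 19.7% of all genes) and a median of -0.64. STS, the sulfatase that frees steroids from their sulfates, had 6.43, 5.96 and 5.48 FPKM in HYOU1 shRNA replicates 1, 2 and 3, against 45.05, 35.2 and 32.5 FPKM in control replicates 1, 2 and 3. It fell with a log2 fold change of -2.63 (standard error 0.16, adjusted p = 0.00199), and the groups were far apart. The ketosteroid reductases AKR1C1, AKR1C2 and AKR1C3 fell with log2 fold changes of -1.93, -1.80 and -0.90 (adjusted p = 0.00228, 0.00274 and 0.00808); these are near-identical genes between which reads may be split uncertainly. The riser, named after its value was seen, was HSD11B2, which inactivates cortisol, with 0.83 (standard error 0.20, adjusted p = 0.0443) and 0.42 (adjusted p = 0.163) after the GC correction. Of 19 genes for retinoid, vitamin D, thyroid hormone and oxysterol enzymes and carriers 7 were tested and 1 rose, where 6.6% of all genes did. This was ALDH1A3, which makes retinoic acid, with 2.92, 3.33 and 3.39 FPKM in HYOU1 shRNA replicates 1, 2 and 3, against 1.97, 1.46 and 1.58 FPKM in control replicates 1, 2 and 3. Its log2 fold change was 0.91 (standard error 0.17, adjusted p = 0.0225). None of the 7 fell with all 6 libraries, while 2 had an unadjusted p under 0.05 in that direction and none was lower with voom weights. Without control replicate 1 there were 2 higher and 2 lower (background 24.6% and 19.7% of all genes), with the median at -0.11, against 0.12 with all 6, and after the GC correction 2 higher and 2 lower (background 20.4% and 20.2% of all genes).

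Over the 16 lists of partners, targets and ligand enzymes, 138 of 242 genes were tested and 37 were called, 18 higher and 19 lower. That is 26.8%, against the 12.3% of all genes, in lists whose genes were picked for their roles with earlier results known. All 37 kept their call and direction without control replicate 1, and 36 did after the GC correction. In those fits 44.3% and 40.6% of all genes were called. Of the 37, voom weights kept 37, quantile normalization 32, a filter of 0.1 FPKM 30, a replicate block 22 and no filter 16. Without HYOU1 shRNA replicate 1, 2 or 3, 7, 7 and 5 kept it; AKR1C1, AKR1C2, IGFBP1, PDK4 and STS did in each. Without control replicate 2 or 3, 10 and 24 kept it, and none of the 37 changed sign when any one library was left out.

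**Figure D5:**
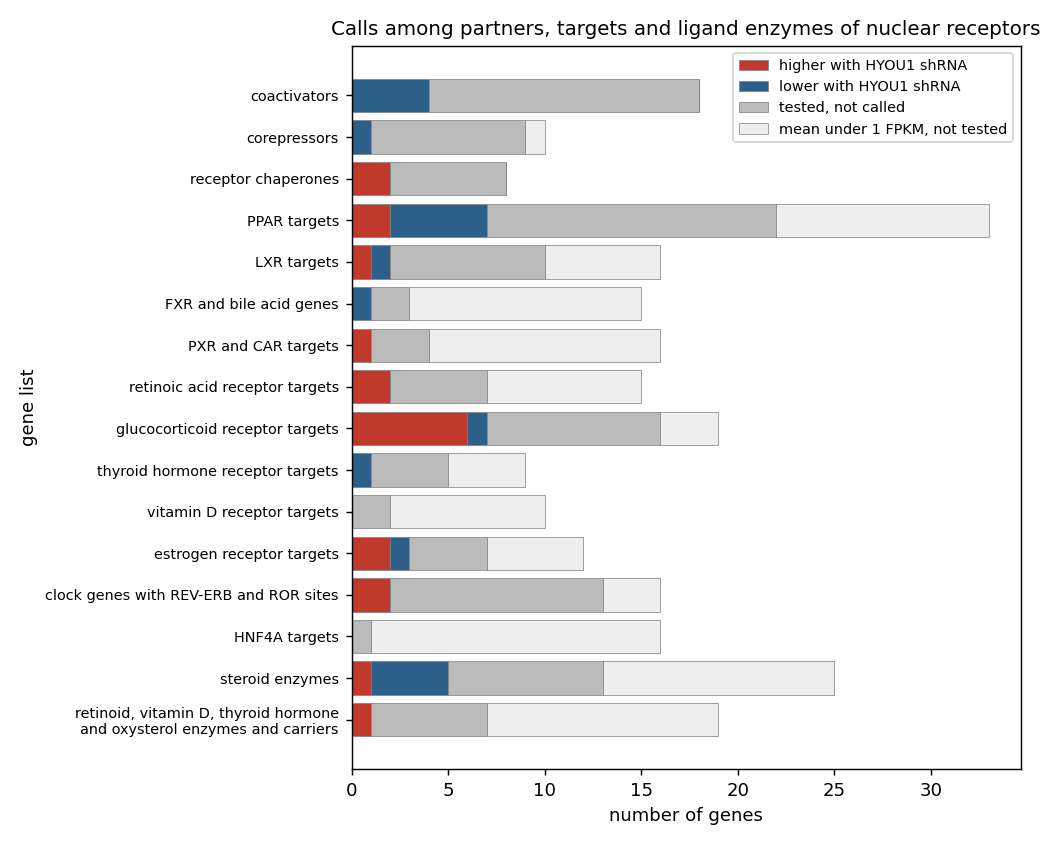
Number of genes in each list of receptor partners, target genes and ligand enzymes (horizontal bars) that were called higher (red) or lower (blue) with HYOU1 shRNA than with control shRNA, tested without a call (grey) or not tested for a mean under 1 FPKM (pale). The PPAR targets and steroid enzymes hold more falls than rises, the glucocorticoid receptor targets 6 rises and 1 fall, and the FXR, PXR and HNF4A lists are mostly pale.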

How the data were processed

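The authors deposited 1 table of FPKM values for 58735 genes in 6 libraries. Per the labels' protocols, polyadenylated RNA was captured and cDNA was primed with random hexamers. The aligner and counting tool are not given in the sources, and neither is the strand setting. Every gene identifier and coordinate matched GENCODE release 29 on GRCh38. FPKM times gene length gave whole fragments in 100% of values, within 0.01 fragments, and the scaling totals equalled median-of-ratios size factors. The values thus already held a correction between libraries.

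Genes averaging 1 FPKM or more over the 6 libraries were tested on log2(FPKM + 0.1), which understates changes of low genes, with limma 3.58.1 in R 4.3.3 (eBayes with variance trend and robust priors). Every adjusted p is from this test over 12448 genes (Benjamini-Hochberg, called under 0.05) unless another is named. The fit was also run on simulated libraries with independent noise, its size taken from the HYOU1 shRNA libraries and control replicates 2 and 3. Control replicate 1 was left out there, so that run cannot show how the fit behaves with that library. The GC correction removed a lowess trend (span 0.3) of each library against GC content, taken from each gene's longest transcript.

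The members and gene lists were chosen with earlier results of these data known, so no p was adjusted over them alone and no list was tested. All 26 expressed members are given by library. From each list up to 4 called genes with the largest change are named, or where none was called the 2 tested genes with the highest mean. Alternatives were other pseudocounts (1, 0.01) and filters (0.1 or 5 FPKM, or none), TPM scaling and quantile normalization, a replicate block, a fit without variance trend, the GC correction with and without the block, voom on the recovered fragments and leaving out each library. Intervals and floors cover counting error only.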

Additional observations from a re-analysis of the deposited data

How the results depend on the processing

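With all 6 libraries 1526 genes and 6 receptor genes were called. All genes called were 938 with a filter of 5 FPKM, 770 with no filter, 5048 after the GC correction and 49 to 5518 with a library left out, the lowest without HYOU1 shRNA replicate 3 and the highest without control replicate 1. Receptor genes called were 15 after the GC correction and 0 to 15 with a library left out, and 4 to 7 under the other alternatives without a block. With the replicate number as a block 940 genes and 5 receptor genes were called, PPARG being lost at an adjusted p of 0.0501. With the block and the GC correction 4504 genes and 14 receptor genes were called. The pairing was not borne out, since the correlations of residuals between same-numbered libraries were 0.125, -0.0933 and 0.17. Over 18 alternatives the 26 genes gave 460 values, of which 14 had the other sign. The 6 called receptor genes gave 107, with 82 on the same side of the threshold, 25 no longer past it (21 of these with a library left out) and none reversed. Under the GC correction, with and without the block, the log2 fold change was -0.20 for PPARD, -0.25 for RARA, -0.22 for THRA and -0.51 for NR2F6. With a library left out it ran from -0.21 to 0.21 for PPARD, -0.0077 to 0.29 for RARA, -0.15 to 0.20 for THRA, -0.19 to 0.34 for NR2F6 and -0.45 to 0.063 for NR1D2, each turned by control replicate 1, and from -0.027 to 0.32 for NR2C1, turned by control replicate 2. SOX9 was at 0.0013 with TPM scaling and ran from -0.0746 to 0.0014, turned by control replicate 1. The cause of these shifts was not tested. The receptor genes under 0.1 FPKM rest on at most 84 fragments over 6 libraries, which limits any comparison.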
